A study of Mus musculus with 24 samples.

Results

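The immediate early genes Fos, Fosb, Jun, Egr1, Egr2, Egr3, Atf3, Ier2, Nr4a1 and Dusp1 were followed in the jaws of mouse embryos at embryonic day 12.5. They are 10 of 18193 genes with a probe set of their own on the Affymetrix Mouse430_2 array, were chosen by symbol, and are read by 13 probe sets. Where a gene had more than 1, the one brightest on average across all 24 arrays was used. The knockout embryos had lost the TGF-beta type I receptor Alk5 (symbol Tgfbr1) where Wnt1-Cre acts, which is in the neural crest and the facial mesenchyme that comes from it; epithelium, endothelium, blood and muscle cells keep the gene. They came from matings of Wnt1cre;Alk5fl/+ with Alk5fl/fl mice on a C57B6 background and were told from their littermates by a cleft palate and a skull defect. The controls were littermates whose own Alk5 alleles and Cre status the labels do not give. Each mandible and maxilla was cut into a proximal and a distal end, which gave 16 knockout arrays (4 for each of the 4 parts, numbered 1 to 4) and 8 control arrays (2 for each part). Nothing in the labels says which arrays come from the same embryo or pool, and the p-values therefore reflect only how far these samples spread, part of which may be technical.

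Immediate early genes are switched on within minutes of a growth factor or stress signal, without new protein being made first. ERK and p38 kinases reach their promoters through SRF with its ternary complex factors and through CREB and ATF proteins, and their transcripts are short-lived. The products are mostly transcription factors: Fos and Jun proteins pair as AP-1, EGR proteins are zinc finger factors, ATF3 is a stress-induced bZIP protein, NR4A1 is an orphan nuclear receptor, IER2 is a nuclear protein, and DUSP1 is a phosphatase that switches MAP kinases off again. Smads activated by TGF-beta receptors act together with AP-1 at some promoters.

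The arrays fall into 3 sets: knockouts numbered 1 and 2, knockouts numbered 3 and 4, and controls, with 8 arrays each. Their medians were alike (log2 of 6.76 to 6.89). The 3' excess (log2 of 3' minus 5' signal of the housekeeping control probe sets, a measure of RNA degradation) was 0.71 to 1.498 on knockouts 1-2, 0.00 to 0.16 on knockouts 3-4 and 0.13 to 0.22 on controls. The hybridisation controls read 11.30 to 12.19 on knockouts 1-2, 9.03 to 9.51 on knockouts 3-4 and 10.09 to 11.07 on controls. The signal of Xist exceeded that of the Y-linked Kdm5d on 4 arrays of each knockout set and on 0 control arrays. This is the sex used as a covariate below. In knockouts 3-4 these were the arrays numbered 4, so with sex as a covariate their comparison with control is the same as leaving out number 4. No set holds both genotypes, so the genotype cannot be told apart from the array set. The brightest probe set of Tgfbr1 spanned 12.07 to 12.64 on knockouts 1-2, 12.32 to 12.52 on knockouts 3-4 and 11.98 to 12.69 on controls. The second spanned 5.42 to 6.62 on knockouts 1-2, 6.28 to 7.07 on knockouts 3-4 and 7.02 to 8.31 on controls, and the third 4.33 to 5.87 on knockouts 1-2, 7.24 to 7.97 on knockouts 3-4 and 6.64 to 7.57 on controls. Whether a probe lies in the deleted stretch is not known here, so they check no label. All 10 jaw mesenchyme markers were above the filter level on average, and the 6 mandible markers averaged 9.08 to 9.92 on mandible and 7.25 to 8.33 on maxilla arrays. The 5 maxilla markers on the array overlapped between the jaws, with 7.25 to 9.62 on mandible and 8.78 to 9.99 on maxilla arrays, so the jaws were told apart by the mandible markers alone.

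Of the 10 genes, 8 were measured above the filter level (log2 of 6.07, the 40th percentile of all values) and entered the tests. Fosb and Egr2 lay below it on all 24 arrays. All levels below are RMA values on the log2 scale, whose height cannot be set against that of another probe set, and all differences are differences of log2 values.

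**Figure D1:**
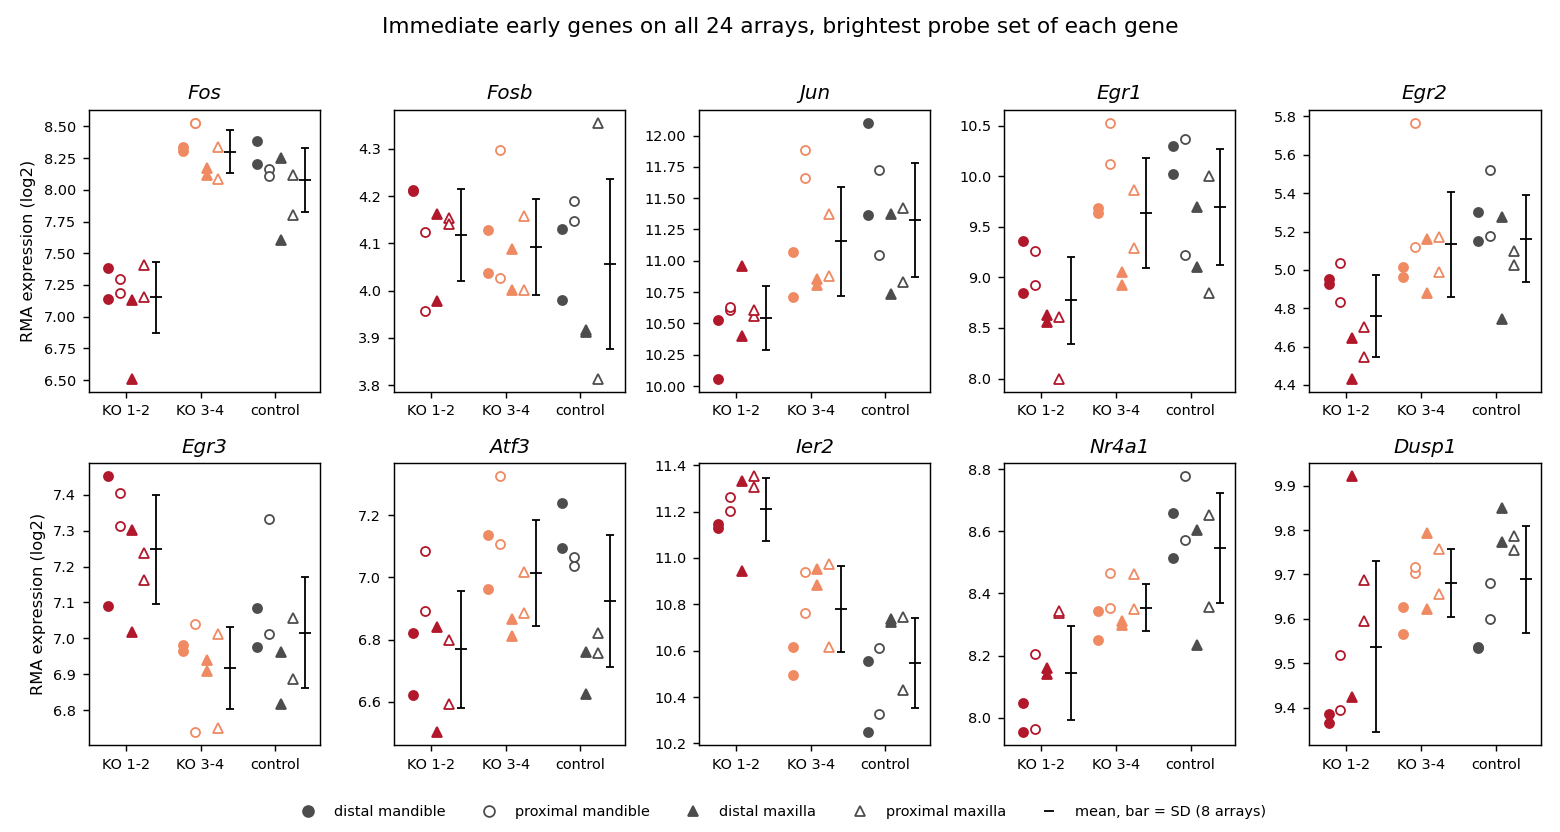
RMA expression (log2) of the 10 genes on every array, in knockouts 1-2, knockouts 3-4 and controls, with a marker for each part and the mean ± SD of 8 arrays beside the points; axes differ between genes. Fos on knockouts 1-2 (6.51 to 7.40) lies below all other arrays (7.60 to 8.53), and Ier2 on knockouts 1-2 (10.94 to 11.35) lies above all controls (10.25 to 10.74).

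Fos (probe set 1423100_at), the founding member of the family that pairs with Jun, gave 6.51, 7.172 and 7.40 on knockouts 1-2, 8.09, 8.32 and 8.53 on knockouts 3-4 and 7.60, 8.14 and 8.39 on controls (lowest, median and highest of 8 arrays). Knockouts 1-2 were below both other sets without overlap, and the other sets overlapped each other. Against control the replicate means differed by -0.93 ± 0.07 in knockouts 1-2 (SE, 2 against 2 means of the 4 parts, limma adjusted p = 0.00168) and by 0.22 ± 0.05 in knockouts 3-4 (adjusted p = 0.108). By part, the difference of knockouts 1-2 from control ran from -1.10 in the distal maxilla to -0.68 in the proximal maxilla. In tissue of many cell types, fewer cells of a type and less RNA per cell cannot be told apart.

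The bases before the transcription start of Fos and Jun are shown since these 2 genes fell in knockouts 1-2. Dusp1 is shown as a gene of the same group that did not pass. The bases are taken from RefSeq (GRCm38.p6), and 7 of the 10 genes were searched. Ier2 and Egr3 had no entry, and Egr1 was left out of the search. Each line gives 250 bases, 5′ to 3′, of the gene's strand. Capitals mark TGACGT (the core of a cAMP response element) and TATAAA in Fos (chr12:85473640-85473889, plus strand), TGACATCA (a variant of the AP-1 site) in Jun (chr4:95052223-95052472, minus strand), and TGACGT with TGACGTCA (a full cAMP response element) in Dusp1 (chr17:26508473-26508722, minus strand).
Fos: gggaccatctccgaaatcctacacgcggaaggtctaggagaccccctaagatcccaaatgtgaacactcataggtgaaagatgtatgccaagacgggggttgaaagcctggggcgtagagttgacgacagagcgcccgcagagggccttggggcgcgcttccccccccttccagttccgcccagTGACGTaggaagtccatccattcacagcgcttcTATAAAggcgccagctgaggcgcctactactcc
Jun: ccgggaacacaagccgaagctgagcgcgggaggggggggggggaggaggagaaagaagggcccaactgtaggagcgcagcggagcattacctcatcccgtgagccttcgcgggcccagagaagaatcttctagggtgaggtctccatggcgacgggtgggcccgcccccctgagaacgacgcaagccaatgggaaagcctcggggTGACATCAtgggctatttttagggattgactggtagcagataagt
Dusp1: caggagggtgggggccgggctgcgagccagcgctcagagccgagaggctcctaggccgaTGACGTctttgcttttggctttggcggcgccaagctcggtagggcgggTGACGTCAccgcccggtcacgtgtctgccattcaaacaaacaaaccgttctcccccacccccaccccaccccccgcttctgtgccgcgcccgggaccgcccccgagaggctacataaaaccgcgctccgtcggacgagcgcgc
Both strands were searched, and TGACGT was also found on the opposite strand in Atf3 and Egr2. TGACGT, which is part of TGACGTCA, stands in 6.47% of 32851 such windows, TGACGTCA in 1.55%, TGACATCA in 2.93% and TATAAA in 12.4%. The capitals in Fos begin 66 and 33 bases before the start, that in Jun 45 bases before it, and those in Dusp1 191 and 143 bases before it. Within these 250 bases the SRF site known as the CArG box, found in 1.47% of windows, matched among the 7 genes only in Egr2. This says nothing of Egr1, which was also lower in knockouts 1-2 but was not searched. TGAGTCA (4.46%) and GCGTGGGCG (0.54%) matched in none of the 7 genes. Sites farther from the start were not searched, so a gene without a match here may hold one there. A match is a run of letters and not evidence of binding.

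Jun (1417409_at), the partner of Fos in AP-1, gave 10.06, 10.58 and 10.96 on knockouts 1-2, 10.71, 10.97 and 11.89 on knockouts 3-4 and 10.74, 11.37 and 12.10 on controls. Most knockout 1-2 arrays were low, but the top of that set reached into both others. The difference from control was -0.78 ± 0.12 in knockouts 1-2 (limma adjusted p = 0.00615) and -0.17 ± 0.14 in knockouts 3-4 (adjusted p = 0.491). Without knockout replicate 1 the first gave an adjusted p of 0.0601. By part it ran from -1.44 in the distal mandible to -0.38 in the distal maxilla.

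A second probe set of Jun (1448694_at) put the knockout sets closer together. It gave 10.11, 10.40 and 10.79 on knockouts 1-2, 9.95, 10.32 and 11.17 on knockouts 3-4 and 10.09, 10.82 and 11.47 on controls. All 3 sets overlapped, and their means differed from control by -0.35 in knockouts 1-2 and by -0.32 in knockouts 3-4, a description with no test. After the mean of each array set and part was taken out, both probe sets of Jun followed each other with r = 0.97 over the 24 arrays, which are 12 pairs of arrays that each share a set and a part. The brighter probe set thus differs from the dimmer mainly by a shift of knockouts 1-2, as the plot of genes with 2 probe sets shows.

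Egr1 (1417065_at), the zinc finger factor most often used as a marker of ERK activity, gave 7.996, 8.74 and 9.36 on knockouts 1-2, 8.92, 9.66 and 10.53 on knockouts 3-4 and 8.85, 9.85 and 10.37 on controls. The sets overlapped, since the controls alone spanned 8.85 to 10.37. Egr1 fell by 0.92 ± 0.13 against control in knockouts 1-2 (limma adjusted p = 0.00574) and differed by -0.06 ± 0.14 in knockouts 3-4 (adjusted p = 0.815). Leaving out knockout replicate 1 or 2 gave adjusted p-values of 0.0555 and 0.0519 for knockouts 1-2.

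Egr3 and Egr2, relatives of Egr1 that many of the same signals switch on, did not both follow it. The brighter probe set of Egr3 (1421486_at) gave 7.02, 7.27 and 7.45 on knockouts 1-2, 6.74, 6.95 and 7.04 on knockouts 3-4 and 6.82, 6.99 and 7.33 on controls. Most knockout 1-2 arrays were high, though the sets overlapped. Egr3 differed from control by 0.23 ± 0.08 in knockouts 1-2 (limma adjusted p = 0.072) and -0.10 ± 0.07 in knockouts 3-4 (adjusted p = 0.43). Its dimmer probe set (1436329_at) ran the other way, with 3.69 to 4.46 on knockouts 1-2, 4.77 to 6.54 on knockouts 3-4 and 3.93 to 7.36 on controls, and was above the filter level on only 4 arrays. With the mean of both probe sets, Egr3 in knockouts 1-2 stood -0.61 from control (adjusted p = 0.00328), so the direction of Egr3 rests on the choice of probe set. Within sets and parts its probe sets had r = 0.07 over 24 arrays, and those of Egr2 r = 0.10.

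**Figure D2:**
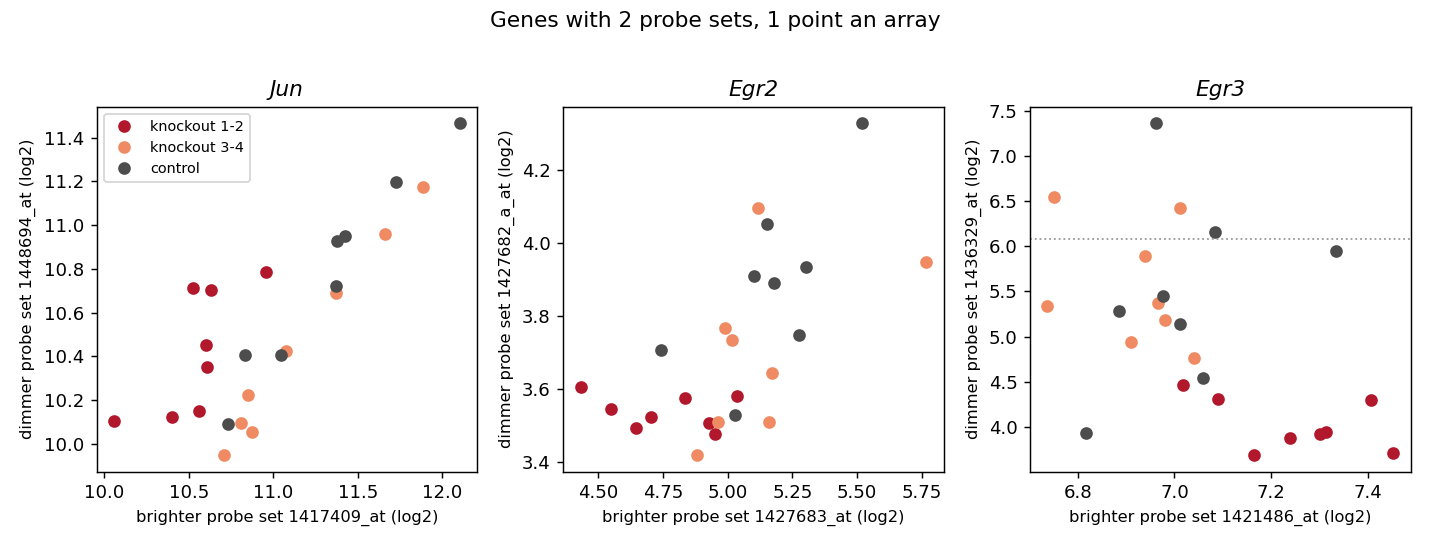
The brighter (x) against the dimmer (y) probe set of Jun, Egr2 and Egr3, RMA expression in log2, 1 point an array, coloured by array set; the dotted line marks the filter level where it falls within the axis. Points of Jun lie along parallel bands with knockouts 1-2 shifted to lower values of the brighter probe set, while for Egr3 most knockout 1-2 arrays combine high values of one probe set with low values of the other.

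Egr2 (1427683_at) gave 4.43, 4.77 and 5.03 on knockouts 1-2, 4.88, 5.07 and 5.77 on knockouts 3-4 and 4.74, 5.17 and 5.52 on controls, all below the filter level. Its dimmer probe set (1427682_a_at) lay at 3.48 to 3.61 on knockouts 1-2, 3.42 to 4.10 on knockouts 3-4 and 3.53 to 4.33 on controls. Tested without a filter, the brighter one differed from control by -0.40 ± 0.08 in knockouts 1-2 (limma adjusted p = 0.0157) and by -0.03 ± 0.06 in knockouts 3-4 (adjusted p = 0.793). Fosb (1422134_at), a second partner of Jun, stayed between 3.81 and 4.36 on every array, and its differences from control of 0.06 ± 0.07 and 0.04 ± 0.08 gave adjusted p-values of 0.554 and 0.805 in knockouts 1-2 and knockouts 3-4. Egr2 and Fosb are therefore given here as dim probe sets, not as measured genes.

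Ier2 went the other way from Fos. Its probe set (1416442_at) gave 10.94, 11.23 and 11.35 on knockouts 1-2, 10.49, 10.82 and 10.98 on knockouts 3-4 and 10.25, 10.58 and 10.74 on controls. Knockouts 1-2 lay above all controls, and knockouts 3-4 overlapped both other sets. Ier2 rose by 0.66 ± 0.07 in knockouts 1-2 against control (limma adjusted p = 0.00313), while the difference of 0.23 ± 0.08 in knockouts 3-4 did not pass (adjusted p = 0.163) and was above 0 in each of the 4 parts.

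Nr4a1 (1416505_at), the orphan receptor, gave 7.95, 8.15 and 8.34 on knockouts 1-2, 8.25, 8.35 and 8.47 on knockouts 3-4 and 8.23, 8.59 and 8.78 on controls. Knockouts 1-2 were mostly low, but all 3 sets overlapped. It fell by 0.40 ± 0.07 in knockouts 1-2 against control (limma adjusted p = 0.00946), and the difference in knockouts 3-4 was -0.19 ± 0.06 (adjusted p = 0.138). Its differences were below 0 in all 4 parts in both knockout sets. They were larger in the mandible (-0.59 in both ends for knockouts 1-2) than in the maxilla (-0.16 and -0.27). For knockouts 1-2 alone this contrast of the jaws was not tested. Over both knockout sets it was -0.27 ± 0.15 (limma unadjusted p = 0.0798) and did not pass. With knockouts 3-4 only, limma called 0 of the 8 genes and 0 of all genes for the same contrast.

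Atf3 and Dusp1 did not pass in either knockout set. Atf3 (1449363_at) gave 6.50, 6.81 and 7.09 on knockouts 1-2, 6.81, 6.99 and 7.32 on knockouts 3-4 and 6.63, 6.93 and 7.24 on controls, with differences from control of -0.16 ± 0.07 in knockouts 1-2 (limma adjusted p = 0.126) and 0.09 ± 0.06 in knockouts 3-4 (adjusted p = 0.377). Dusp1 (1448830_at), whose product ends MAP kinase signals, gave 9.36, 9.47 and 9.92 on knockouts 1-2, 9.56, 9.68 and 9.79 on knockouts 3-4 and 9.53, 9.72 and 9.85 on controls, with differences of -0.15 ± 0.07 in knockouts 1-2 (adjusted p = 0.133) and -0.01 ± 0.05 in knockouts 3-4 (adjusted p = 0.923). The 3 sets overlapped in both genes.

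Counted together, knockouts 1-2 against control called 5 of the 8 tested genes, 4 lower (Fos, Jun, Egr1 and Nr4a1) and 1 higher (Ier2), where limma called 52.6% of all 13837 genes, 31.7% lower and 20.9% higher. The share of 5 in 8 among the immediate early genes is thus near that of all genes. The 8 arrays of each set did not overlap in Fos (lower) and Ier2 (higher), 2 of the 8 genes, which held for 30.5% of all genes (17.9% lower and 12.5% higher). The median difference of the 8 genes was -0.28, beside -0.06 over all genes tested. Knockouts 3-4 against the same controls called 0 of 8, with 3 (Fos, Ier2 and Nr4a1) at an unadjusted p under 0.05, where 1.56% of all genes were called (0.275% higher and 1.29% lower). Its arrays overlapped the controls in all 8 genes, while 7.13% of all genes did not overlap (2.44% higher and 4.7% lower). The median was -0.03, as it was over all genes. With the 3' excess as a covariate limma called 0 of the 8 genes in knockouts 1-2, and 0 of all genes, with 1 residual degree of freedom. That excess lay wholly above the controls in knockouts 1-2, so the fit can hardly separate it from the set. With sex as a covariate limma called only Fos.

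**Figure D3:**
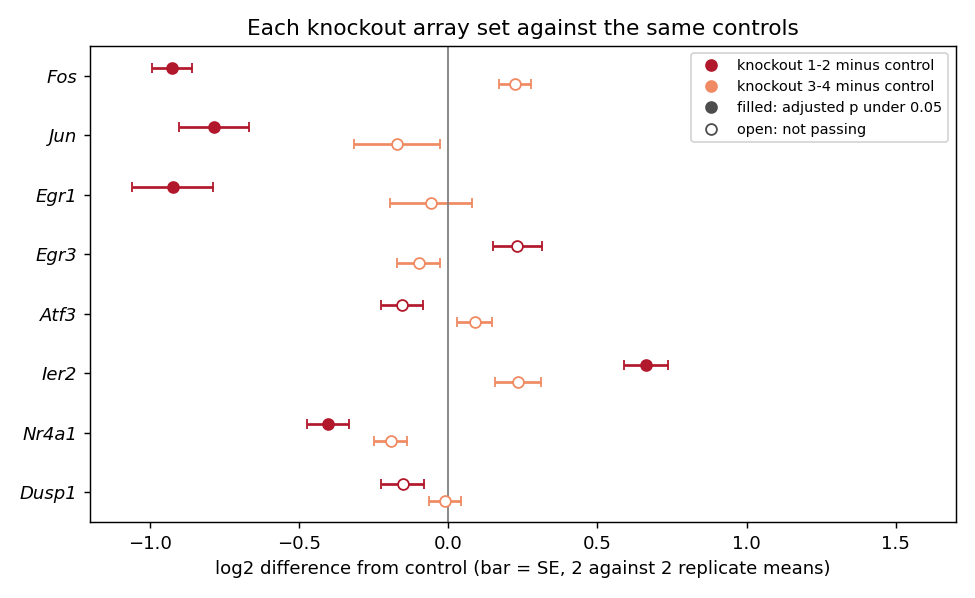
Difference from control (log2, x axis) of the 8 tested genes in knockouts 1-2 (dark) and knockouts 3-4 (light), as points with the SE of 2 against 2 replicate means; filled points passed an adjusted p of 0.05. Fos (-0.93), Jun (-0.78), Egr1 (-0.92), Nr4a1 (-0.40) and Ier2 (0.66) are filled for knockouts 1-2, and no point is filled for knockouts 3-4.

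The 2 knockout sets, which share a genotype and no controls, differed from each other in 7 of the 8 genes, 5 lower and 2 higher, where limma called 64.9% of all genes (36.2% lower and 28.7% higher). Fos stood -1.15 ± 0.07 from knockouts 3-4 in knockouts 1-2 (limma adjusted p = 0.000173), and its arrays alone of the 8 genes did not overlap, as held for 35.8% of all genes (19.5% lower and 16.3% higher). Egr1 differed by -0.87 ± 0.07 (adjusted p = 0.000307) and Jun by -0.61 ± 0.10 (adjusted p = 0.00315), and Atf3 (-0.24) and Nr4a1 (-0.21) were lower too, at adjusted p-values of 0.0189 and 0.0451. Ier2 (0.43) and Egr3 (0.33) were higher, at 0.00495 and 0.0212; with the mean of its probe sets Egr3 turned to -0.60 (adjusted p = 0.000573). Dusp1 differed by -0.14 ± 0.07 (adjusted p = 0.11). Without knockout replicate 3 the count was 4, since Atf3, Egr3 and Nr4a1 then had adjusted p-values of 0.0874, 0.126 and 0.233. Nr4a1 also missed the threshold without replicate 2 (0.119) or 4 (0.107), Atf3 without 4 (0.117) and Egr3 without 1 (0.0768).

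All 16 knockout arrays together were compared with the controls as replicate means over the 4 parts. Here limma called 0 of 8 genes and 0% of all genes, with Ier2 and Nr4a1 the 2 of the 8 at an unadjusted p under 0.05. Fos averaged 7.12, 7.18, 8.27 and 8.33 in knockouts numbered 1 to 4 and 8.07 and 8.09 in controls numbered 1 and 2. The knockout means thus fell on both sides of the control means, and the difference of -0.35 ± 0.42 had an adjusted p of 0.753. For Jun, Egr1 and Nr4a1 the differences were -0.48 ± 0.25, -0.49 ± 0.33 and -0.30 ± 0.11, and for Ier2 0.45 ± 0.18, each at an adjusted p of 0.706. In a fit of all 24 arrays with 12 means of set and part, chosen after seeing the data, these 4 genes and Fos passed.

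Part by part, limma called 0 of 8 genes between knockout and control in each part. Of all genes it called 0.0145% in the distal mandible, 0% in the proximal mandible, and 0.00723% in each end of the maxilla. At an unadjusted p under 0.05 stood 2 of the 8 genes in each end of the mandible, 0 in the distal maxilla and 1 in the proximal maxilla. The largest of these differences was that of Jun in the distal mandible (-1.14 ± 0.38, adjusted p = 0.36). Jun there gave 10.52, 10.06, 10.71 and 11.07 on the 4 knockout arrays and 11.37 and 12.10 on the controls. Whether the knockout effect differed between jaws or between ends was tested directly, and limma called 0 of 8 genes and 0% of all genes in both, with 0 of 8 at an unadjusted p under 0.05. These tests and those by part used 8 group means, which leave the gap between the knockout sets in the spread. With 12 means of set and part, limma again called 0 of 8 genes for jaws and for ends. At an unadjusted p under 0.05 then stood 1 of 8 for the jaws and 0 for the ends. Of all genes, 0 and 1 were called. Counts by part with 12 means are given further below.

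Egr1 was the one gene of the 8 called between the jaws. Knockout mandibles gave 8.85, 9.50 and 10.53 and knockout maxillae 7.996, 8.775 and 9.86 (lowest, median and highest of 8). Control mandibles gave 10.02 and 10.30 at the distal and 10.37 and 9.22 at the proximal end, and control maxillae 9.10 and 9.69 at the distal and 10.004 and 8.85 at the proximal end. The jaws overlapped in both genotypes, yet the mandible mean was above the maxilla mean in each of the 3 sets at each end, by 0.37 to 0.79. The difference was 0.68 ± 0.20 in knockouts (limma adjusted p = 0.0486, where 7.71% of all genes were called, 3.34% higher and 4.37% lower). In controls it was 0.57 ± 0.28 (adjusted p = 0.477), with 0 of the 8 genes called and 0.687% of all genes, 0.296% higher and 0.39% lower. Arrays of all 8 genes overlapped between the knockout jaws, while 0.708% of all genes did not. The call in knockouts stands at the threshold: with each array centred on its median the adjusted p was 0.0576, and without a filter 0.0562. Leaving out any 1 knockout replicate gave 0.105 to 0.43. In the same comparison 6 of 8 skeletal muscle markers were higher and 4 of 8 neuron markers lower in the knockout mandible, and their part in the result was not tested.

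Atf3 and Dusp1 separated the control jaws without a call. Atf3 gave 7.07, 7.04, 7.09 and 7.24 on control mandibles and 6.76, 6.82, 6.63 and 6.76 on control maxillae, without overlap, a difference of 0.37 ± 0.09 (limma adjusted p = 0.088), and 0.20 ± 0.06 in knockouts (adjusted p = 0.068). Its mandible mean was above that of the maxilla in all 3 sets at both ends, by 0.05 to 0.47. Dusp1 gave 9.68, 9.60, 9.54 and 9.53 on control mandibles and 9.79, 9.75, 9.85 and 9.77 on control maxillae, again without overlap, a difference of -0.20 ± 0.09 (adjusted p = 0.38), and -0.15 ± 0.06 in knockouts (adjusted p = 0.164). These 2 of the 8 genes compare with 7.5% of all genes without overlap between the control jaws (3.43% higher in the mandible and 4.08% lower). Without knockout replicate 1, Dusp1 in knockouts passed (-0.21, adjusted p = 0.0193) and Egr1 did not (0.49, adjusted p = 0.265).

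Between the distal and proximal ends limma called 0 of 8 genes in knockouts (0.463% of all genes, 0.137% higher and 0.325% lower) and 0 of 8 in controls (0%), with 2 (Jun and Atf3) and 0 at an unadjusted p under 0.05. In knockouts Jun differed by -0.35 ± 0.16 (distal minus proximal, adjusted p = 0.403) and Atf3 by -0.14 ± 0.06 (adjusted p = 0.405). Without knockout replicate 2, Atf3 passed (-0.26, adjusted p = 0.0233). Egr1 in knockouts 3-4 was lower at the distal end in both jaws (-0.67 in the mandible and -0.59 in the maxilla), against 0.01 and 0.29 in knockouts 1-2 and 0.37 and -0.03 in controls. Jun in knockouts 3-4 was lower there too (-0.88 and -0.29), against -0.33 and 0.10 in knockouts 1-2 and 0.35 and -0.07 in controls. The values of single jaws have no test of their own. Over both jaws, limma compared the ends in knockouts 3-4 alone and called 0 of 8 genes and 0 of all genes.

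Arrays of 1 set and part differed more in some of these genes than in others. The SD within set and part was 0.43 for Egr1 and 0.34 for Jun, at percentiles 91.8 and 87.1 of all genes tested, and 94.2 and 96.4 among the 500 genes nearest in level. It was 0.22 for Fos (percentile 71.0), 0.16 for Ier2, 0.15 for Egr3, 0.13 for Nr4a1, 0.12 for Atf3 and 0.117 for Dusp1 (percentile 23.99). In Egr1 6 of 12 pairs of arrays lay more than 0.5 apart and in Jun 5, of which 4 were control pairs, against 2 in Fos and 0 in Egr3, Atf3, Ier2, Nr4a1 and Dusp1. The widest pairs were those of Egr1 in the control proximal maxilla (10.004 and 8.85) and proximal mandible (10.37 and 9.22). The widest gap of Egr1, 1.16, is larger than its difference between knockouts 1-2 and control.

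**Figure D4:**
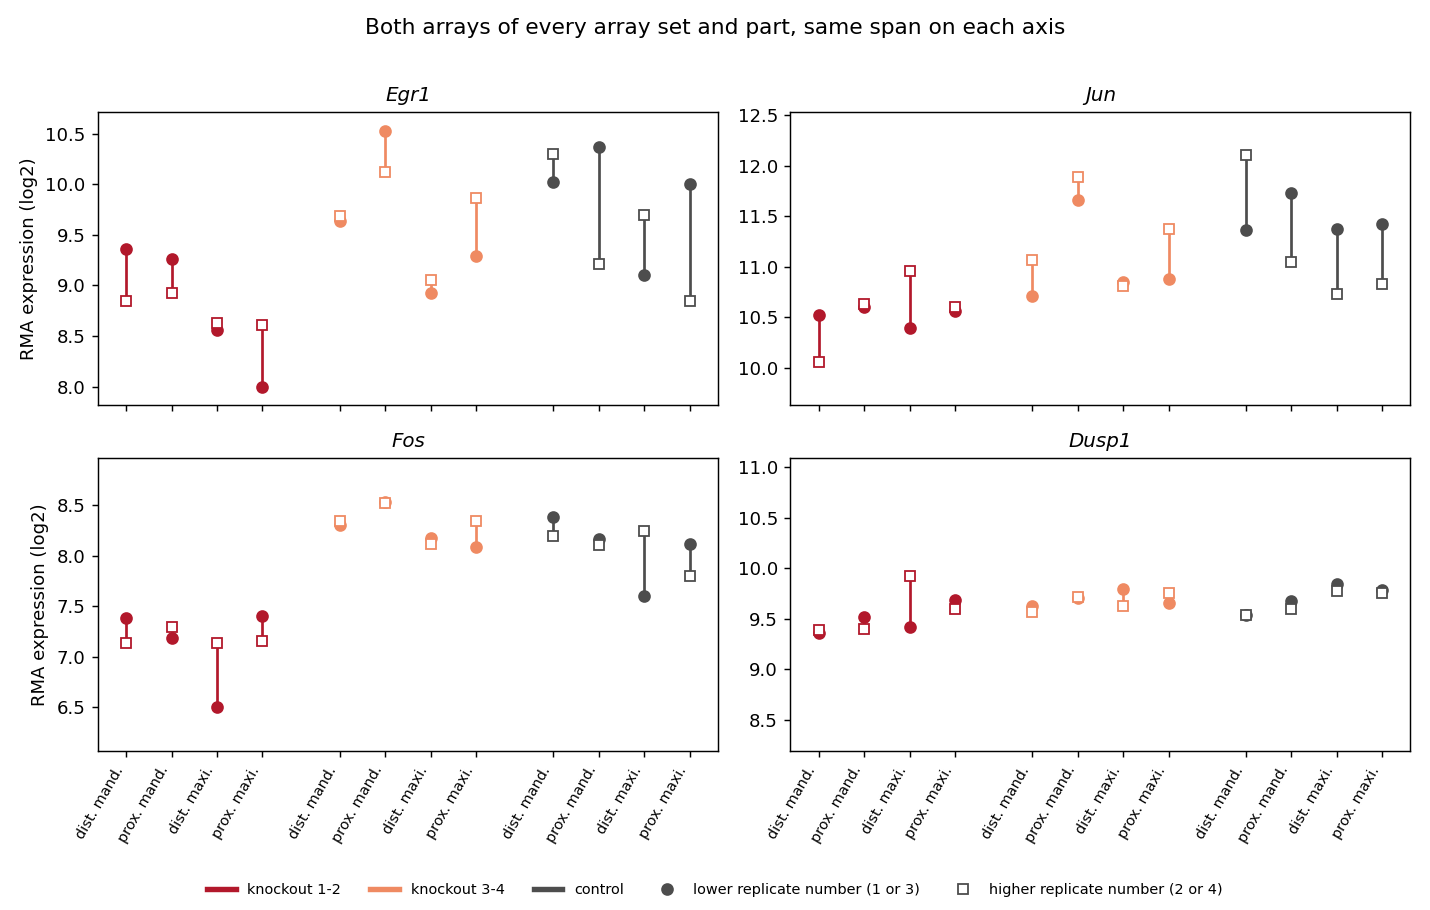
Both arrays of each array set and part (joined by a line) for Egr1, Jun, Fos and Dusp1, RMA expression in log2 over the same span in each panel; filled circles carry the lower replicate number and open squares the higher. Egr1 and Jun show wide gaps, up to 1.16 and 0.73, while Dusp1 has 1 wide pair, of 0.50.

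The genes did not swing together as a block. After the means of set and part were taken out, the correlation over 24 arrays (12 pairs that share set and part) was 0.73 between Nr4a1 and Egr1, 0.69 between Dusp1 and Atf3, 0.63 between Ier2 and Egr3 and 0.52 between Egr1 and Jun, but 0.15 between Jun and Fos and -0.34 between Ier2 and Fos. The mean of the tested genes was taken without scaling, so Egr1 and Jun, with the widest spread, weigh most in it. Correlations of each gene with the mean of the others ran from 0.08 (Ier2) to 0.61 (Egr1). With the mean of the genes, the most similar others were Svbp (0.92), Tex14 (0.91), Reps2 (0.90), Hpgds (0.88), Rgmb (0.88), Glipr2 (0.88), Ly86 (0.87) and Acy3 (0.87). This order is loose: 5 of these 8 stayed among the first 8 when arrays were centred on their medians, 0 when probe sets were averaged and 1 without knockouts 1-2. Other immediate early genes had a median correlation of 0.22, beside 0.05 over all genes, with 17.9% of 28 and 11.49% of 13829 above 0.5. They ran from -0.71 (Ier5) and -0.64 (Nr4a2) to 0.68 (Klf6) and 0.73 (Rhob), named after their values were seen.

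In a list of other immediate early genes, 16 of 28 tested were lower and 2 higher in knockouts 1-2 than in control, where 31.7% of all genes were lower and 20.9% higher, and the median difference was -0.45, beside -0.06 over all genes. Ccn1, a matricellular protein, fell by 1.61 ± 0.14 (limma adjusted p = 0.00194) and the growth regulator Myc fell by 1.35 ± 0.07 (adjusted p = 0.0015). The zinc finger factor Klf2 fell by 1.32 ± 0.11 (adjusted p = 0.002), and Zfp36, which destabilises transcripts with AU-rich elements, fell by 1.25 ± 0.09 (adjusted p = 0.00168). Trib1, a pseudokinase, and Jund, a Jun relative with steady expression, rose by 0.34 ± 0.07 and 0.28 ± 0.08 (adjusted p = 0.0147 and 0.0444). With the mean of all probe sets Ccn1 gave -0.46 (adjusted p = 0.0321), Trib1 0.22 (0.0327) and Jund 0.19 (0.0746), and Jund also missed the threshold with centred arrays (0.108) and without a filter (0.0502). Leaving out knockout replicate 1 gave Trib1 0.0757 and Jund 0.18, replicate 2 gave them 0.0634 and 0.0965, and control replicate 2 gave them 0.0593 and 0.162. In knockouts 3-4, 1 of 28 was lower, the small GTPase gene Rhob (-0.73 ± 0.05, adjusted p = 0.0352), and 0 higher, where 1.56% of all genes were called, with a median of -0.14, beside -0.03 over all genes. Rhob gave an adjusted p of 0.375 without knockout replicate 3, 0.356 without 4 and 0.0536 without control replicate 1. The 3' excess was high only on knockouts 1-2, the set with most of these calls. The hybridisation controls differed between the sets, and the sex counts were the same in both knockout sets. Their part in these counts was not tested.

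Of 16 factors and kinases that act on these promoters, 4 were higher and 6 lower in knockouts 1-2 than in control, close to the shares of all genes (20.9% higher and 31.7% lower). Elk3, a ternary complex factor, fell by 1.17 ± 0.09 (limma adjusted p = 0.00168), whereas the p38 kinase gene Mapk14 rose by 0.83 ± 0.08 (adjusted p = 0.00244) and Srf by 0.34 ± 0.08 (adjusted p = 0.023). Mrtfa, an SRF coactivator, rose by 0.59 ± 0.07 in knockouts 1-2 (adjusted p = 0.00333) and fell by 0.55 ± 0.06 in knockouts 3-4 (adjusted p = 0.0486), the 1 call of the list there. Mrtfa in knockouts 3-4 gave an adjusted p of 0.375 without knockout replicate 3, 0.356 without 4 and 0.0612 without control replicate 1. Srf gave 0.0547 without knockout replicate 1, 0.092 without 2 and 0.0813 without control replicate 1. With the mean of all probe sets Elk3 gave -0.78 in knockouts 1-2 (adjusted p = 0.00126), while Mapk14 gave 0.09 (0.341) and Srf 0.16 (0.115) and did not pass; Srf also missed the threshold with centred arrays (0.0641).

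Of 15 feedback genes of ERK signalling, 8 were lower and 2 higher in knockouts 1-2 than in control, where 31.7% of all genes were lower and 20.9% higher. Dusp14 and Spry1, a phosphatase and a Sprouty inhibitor, fell by 1.21 ± 0.09 and 1.08 ± 0.09 (limma adjusted p = 0.0018 and 0.00185), Spred2 by 0.99 ± 0.07 (adjusted p = 0.0017, but 0.07 above control with the mean of its probe sets), and Etv4, an ETS factor downstream of FGF, rose by 1.30 ± 0.12 (adjusted p = 0.00235). In knockouts 3-4 Spry4 alone was called (-0.81 ± 0.06, adjusted p = 0.0387). Without knockout replicate 3 or 4, or control replicate 1, its adjusted p was 0.375, 0.356 and 0.0536, and with the mean of its probe sets it gave -0.33 (adjusted p = 0.0765). Among 8 corepressors and partners of EGR and AP-1 proteins, 3 fell in knockouts 1-2, namely Jdp2 (-0.82 ± 0.11, adjusted p = 0.00506), Nab1 (-0.46 ± 0.07, adjusted p = 0.00635) and Nab2 (-0.43 ± 0.09, adjusted p = 0.0145), and 2 rose (Batf3 by 0.33 ± 0.07 and Ddit3 by 0.33 ± 0.09, adjusted p = 0.0136 and 0.0368). Nab2, Batf3 and Ddit3 missed the threshold without knockout replicate 1 (0.0809, 0.0635 and 0.166) or 2 (0.0796, 0.059 and 0.081), and Batf3 and Ddit3 also without control replicate 1 (0.0571 and 0.129). Ddit3 missed it with centred arrays too (0.09), and Jdp2 gave -0.36 with the mean of its probe sets (adjusted p = 0.012). Among 13 TGF-beta target genes 10 fell in knockouts 1-2, where 31.7% of all genes were lower, and 0 were called in knockouts 3-4, where 1.56% of all genes were. The matricellular genes Postn and Ccn2 stood at -1.86 ± 0.08 and -1.44 ± 0.14 (adjusted p = 0.00148 and 0.00252). Ccn2, Klf10 and Junb stand in 2 of these lists.

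Markers of some other cells differed between the array sets too, in a comparison that called 31.7% of all genes lower and 20.9% higher in knockouts 1-2. In knockouts 1-2 all 5 tested erythroid markers were higher. The mean level of the 6 erythroid markers on the array was 11.15 to 11.84 there, against 9.62 to 10.065 in knockouts 3-4 and 10.065 to 10.31 in controls. Of 10 jaw mesenchyme markers 4 were lower and 1 higher in knockouts 1-2, near the share of all genes, and 0 were called in knockouts 3-4. Endothelium markers were lower in 7 and higher in 1 of 10, with mean levels of 8.34 to 9.03 in knockouts 1-2, 8.96 to 9.54 in knockouts 3-4 and 9.11 to 9.44 in controls. Of 9 epithelium markers 4 were called higher in knockouts 1-2 and 0 in knockouts 3-4, but the median difference from control was 0.49 in knockouts 1-2 and 0.41 in knockouts 3-4, with 8 of 9 above 0 in each. In knockouts 1-2, 0 of 8 skeletal muscle markers were called, 2 of 8 neuron markers were lower, and of 9 macrophage markers 2 were higher and 1 lower. In knockouts 3-4, 1 of 5 erythroid and 1 of 10 endothelium markers were lower. There 1 of 9 macrophage markers was higher, where 1.56% of all genes were called. The part of all these markers in the differences of the immediate early genes was not tested.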

How the data were processed

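Total RNA from mouse jaw parts was hybridised to Affymetrix Mouse430_2 arrays, whose number limits the precision. The deposited table gives RMA values on the log2 scale for each probe set; that the authors used RMA is per the submitters' processing notes, and its version is not given in the sources used here. The table holds 45101 probe sets, 64 of them control features. A single gene symbol belongs to 34945 of the others, several to 932 and none to 9160; 34741 matched a RefSeq gene by identifier, with 0 symbols updated. The brightest probe set stood for each of 18193 genes, and 13837 genes above log2 of 6.07 (40th percentile) on at least 2 of 24 arrays were tested. No arrays were duplicates (highest correlation 0.995).

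Tests were 2-sided and used lmFit and eBayes of limma 3.58.1 (R 4.3.3). P-values were adjusted by the Benjamini-Hochberg method across the 13837 genes, called under 0.05, and the fits were tested on simulated data. Comparisons over all parts used means of the 4 parts per genotype and replicate number (4 residual degrees of freedom, or 2 for 2 against 2). A number may not mark the same source in every part, so the SEs of these comparisons may be too small. Parts and interactions came from 1 fit of 8 group means, jaws and ends from 1 fit of 12 means of array set and part. Alternatives changed scaling, filter, variance model, probe set rule, replicates, covariates, blocks and samples in the fit. The rule for naming genes took all 10 members and, per list, at most the 4 smallest p-values each way among genes past the threshold; the text gives part of them. The 8 other genes whose values followed the mean of the members most closely were named as well. The members, lists, tests and array sets were chosen with earlier results of these data known.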

Additional observations from a re-analysis of the deposited data

Results flagged for a closer look

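In each of the 10 genes the 4 knockout arrays of each part, and the 4 knockout means over the parts, were searched for a sample far from the others by Dixon's ratio at its critical value for 4 samples. Chance alone is expected to mark about 1 group in 20, and 4 of 50 groups were marked. Ier2 in the knockout distal maxilla stood at 11.33 on replicate 1, above 10.88 to 10.95 on the other arrays. Atf3 on the same array stood at 6.50, below 6.81 to 6.86 on the others. That array had the highest 3' excess of all (1.498, against 0.71 on replicate 2 of this part), whose part in both values was not tested. Nr4a1 in the knockout proximal maxilla stood at 8.46 on replicate 3, above 8.34 to 8.35. Fosb, below the filter level throughout, stood at 4.00 on replicate 4 of the knockout proximal maxilla, below 4.14 to 4.16.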

How the results depend on the processing

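Of 932 recomputed values of 67 differences of named genes, 748 kept their direction and side of the threshold, 138 kept their direction and lost the call, 21 gained one and 25 turned. Over all parts, knockout against control called 0 of the 8 genes under every alternative listed in advance other than the replicate block, which called 5; it drops numbers 3 and 4, which controls lack, and so repeats knockouts 1-2 against control. The fits added after seeing the data called 5 with control numbers crossed and 5 over 24 arrays with 12 group means. For knockouts 1-2 against control the count went to 0 with the 3' excess as covariate, 1 with sex, 8 over 24 arrays with 12 means, and 3 to 5 when a replicate was left out; the replicate block kept it at 5. For knockouts 1-2 against knockouts 3-4 leave-outs gave 4 to 6, and knockouts 3-4 against control stayed at 0 throughout. In the proximal mandible, distal mandible and both maxilla parts the replicate block called 3, 6, 2 and 4 genes, and 12 group means called 2 and 3 in the mandible. Between the jaws in knockouts the count of 1 went to 0 with centring, without a filter, with 8 group means, with knockouts 3-4 only, with knockouts 1-2 only (added later) and with the replicate block, and to 0 to 1 in leave-outs; between the ends it was 0 to 1. Of the genes most like the members, 5, 0 and 1 of 8 stayed with centring, averaged probe sets and knockouts 3-4 with controls. The numbers were not taken to pair the samples, since not every correlation was over 0.1: number 1 minus number 2 correlated from -0.56 to -0.10 over genes between knockouts 1-2 and controls of a part, and between parts from -0.68 to 0.58 in controls and from -0.31 to 0.22 in knockouts 1-2. Number 3 minus number 4 correlated from 0.07 to 0.35 between the parts of knockouts 3-4, all 6 above 0. That is a hint from the data, not the design, that those numbers may mark a shared source. Sex followed these numbers in every part (number 4 female, number 3 not), and its part in the correlations was not tested.

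Values that turned were those of genes near 0, of averaged probe sets or of the 3' excess covariate, which leaves 1 residual degree of freedom for knockouts 1-2; the cause was not tested. With that covariate, knockouts 1-2 minus control gave Zfp36 0.031, Klf2 0.248, Jund -0.467, Etv4 -1.034, Ddit3 -0.41, Egr3 -0.924, Atf3 0.161 and Dusp1 0.353, knockouts 3-4 minus control Dusp1 0.045, and all knockouts minus control Fos 0.113, Egr3 -0.068 and Atf3 0.066. The 3' excess of knockouts 1-2 lay wholly above that of controls, so that fit can hardly separate it from the set. For Zfp36, Klf2, Jund and Etv4 in knockouts 1-2 the SEs were 0.68 to 1.02, against 0.08 to 0.12 without the covariate. The direction of such values is therefore not settled. Averaged probe sets turned Spred2 to 0.075, Hsph1 to -0.177 and Egr3 to -0.609 in knockouts 1-2, Egr3 to -0.308 over all knockouts and to -0.6 between the knockout sets. Leaving out a replicate moved all knockouts minus control from -0.015 to 0.147 in Egr3 and -0.079 to 0.013 in Atf3, and knockouts 3-4 minus control from -0.236 to 0.123 in Egr1 and -0.033 to 0.014 in Dusp1, which the sex covariate put at 0.005. Over all 13837 genes, counts differing by over 1.5 times were as follows. All knockouts against control called 0, against 679 with the 3' excess covariate, 6393 with the replicate block, 7373 with crossed numbers and 6480 over 24 arrays. Knockouts 1-2 against control called 7279, against 4038 without knockout replicate 1, 2522 with sex and 0 with the 3' excess. Knockouts 3-4 against control called 216, against 0 to 1378 in leave-outs, 746 with a variance trend, 642 with all 6 means, 2478 over 24 arrays and 0 with either covariate or with numbers exchanged in parts that ran against the others. In single parts the count of 0 to 2 genes became 509 to 3186 with 12 group means, 217 to 293 with knockouts 3-4 only, 4987 to 6709 with the block, 0 to 11 with other scalings, filters, variance models or probe set rules, and 0 to 37 in leave-outs. Between jaws, 1067 genes in knockouts became 150 to 474 without knockout replicate 2, 3 or 4, 326 with 8 group means, 279 with knockouts 1-2 and 49 with knockouts 3-4, and 95 in controls became 263 to 395 in leave-outs and 25 with 8 group means. Between ends, 64 in knockouts became 2 to 1554 in leave-outs, 42 with averaged probe sets, 5 with 8 group means, 15 with knockouts 1-2 and 0 with knockouts 3-4, and 0 in controls became 5 to 111 in leave-outs.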

Other observations

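Of 11 heat shock genes, 3 were lower in knockouts 1-2 than in control and 1 higher, where 31.7% of all genes were lower and 20.9% higher, with a median difference of -0.14 beside -0.06 over all genes. Hspa1a, the inducible chaperone HSP70, fell by 1.01 ± 0.14 (limma adjusted p = 0.00481), and Hsph1, a co-chaperone of HSP70, rose by 0.54 ± 0.07 (adjusted p = 0.00398), but lay 0.18 below control when its probe sets were averaged. In knockouts 3-4, 0 of 11 were called, where 1.56% of all genes were.

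Among genes that separate parts within the knockouts, Plk2, an immediate early polo-like kinase, was lower in the mandible than in the maxilla (-0.35 ± 0.07, limma adjusted p = 0.0104) and higher at the distal than at the proximal end (0.45 ± 0.07, adjusted p = 0.0132). Dusp6, the ERK phosphatase induced by FGF signals, was lower at the distal end (-0.48 ± 0.10, adjusted p = 0.0486). Leaving out a knockout replicate gave Plk2 adjusted p-values of 0.0642 to 0.174 between the jaws. Between the ends Plk2 gave 0.222 without replicate 1, 0.56 without 3 and 0.222 without 4, and Dusp6 gave 0.132, 0.914 and 0.411. With the mean of its probe sets Plk2 gave -0.14 between the jaws (0.277) and 0.24 between the ends (0.259). Dusp6 missed the threshold with averaged probe sets (0.0575), without a filter (0.0541) and with the replicate block (0.109), and gave -0.73 in knockouts 1-2 (0.173) and -0.22 in knockouts 3-4 (0.631).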
